A study of Mus musculus with 6 samples.

Results

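The CXC chemokines are small secreted proteins that steer leukocytes. The genes described here are 9 of them, Cxcl1, Cxcl2, Cxcl3, Cxcl9, Cxcl10, Cxcl12, Cxcl13, Cxcl16 and Pf4, taken by name from the 23405 genes that could be matched in the tables. Each gene is represented by the transcript with the highest normalised count, averaged over all 6 libraries and not corrected for length. All 9 passed the filter on low values and were among the 15625 genes tested. For Cxcl1, Cxcl2, Cxcl3, Cxcl10 and Cxcl12 that transcript is annotated as a retained-intron form. This does not make it the main form of these genes. Per kilobase the highest protein-coding transcript of each had the higher mean in both groups, for Cxcl1 at 1768 against 936 in KO libraries. RNA came from liver cells of male C57BL/6 mice aged 3 months, selected on magnetic columns for F4/80, a surface antigen of mouse macrophages. There were 3 libraries of KO mice given CCl4 and 3 of WT mice given CCl4. Both groups thus received carbon tetrachloride (CCl4), injected into the peritoneum, which damages hepatocytes and causes fibrosis on repeated dosing. The extent of the injury was not measured in these data, and no uninjured liver was analysed here. The labels name neither the gene that was knocked out nor the allele or the driver of any Cre, and nothing in them ties a library to its own animal, so p-values measure the spread between these libraries, which may be technical.

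Chemokines of the CXC family carry a pair of cysteines with 1 residue between them near the start of the mature protein. Those with a glutamate-leucine-arginine (ELR) motif just before these cysteines bind CXCR2 and attract neutrophils, which is the role of Cxcl1, Cxcl2 and Cxcl3. Cxcl9 and Cxcl10 lack the motif, are induced by interferons and attract T and NK cells through CXCR3. Cxcl12 binds CXCR4 and the scavenging receptor ACKR3, Cxcl13 guides B cells through CXCR5, Cxcl16 is anchored in the membrane and binds CXCR6, and Pf4 is the platelet factor stored in the granules of platelets. In liver, macrophages, sinusoidal endothelium, stellate cells and hepatocytes can all make members of this family.

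The stretches of coding sequence around the cysteine pair are shown because they divide the genes into those of neutrophil and those of other leukocyte attraction. They were read from GENCODE M21 transcripts (GRCm38), 36 bases each, 5′ to 3′. The capitals mark 3 codons before the first cysteine codon and the codons from the first to the second cysteine.
Cxcl1: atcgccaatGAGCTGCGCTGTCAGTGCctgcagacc
Cxcl2: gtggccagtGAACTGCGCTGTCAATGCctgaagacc
Cxcl3: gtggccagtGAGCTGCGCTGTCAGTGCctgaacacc
Cxcl9: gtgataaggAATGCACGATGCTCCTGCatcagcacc
Cxcl10: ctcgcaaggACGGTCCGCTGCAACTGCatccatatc
Cxcl12: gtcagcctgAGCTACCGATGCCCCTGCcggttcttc
Cxcl13: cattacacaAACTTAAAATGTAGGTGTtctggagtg
Cxcl16: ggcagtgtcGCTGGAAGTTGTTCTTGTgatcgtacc
Pf4: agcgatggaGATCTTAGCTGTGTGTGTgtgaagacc
The 3 codons before the first cysteine encode ELR in Cxcl1, Cxcl2 and Cxcl3 and in none of the other 6 genes. Cxcl2 and Cxcl3 are also alike beyond this stretch: their coding transcripts share an exact run of 110 bases, against 23 bases between Cxcl1 and either of them, so reads from that run cannot be assigned to one gene by sequence.

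Of the 9 genes, 2 rose in KO libraries, Cxcl1 and Cxcl3, and none fell. The test was limma on log2(value + 1), with p adjusted by the Benjamini-Hochberg method over all tested genes and a call at an adjusted p under 0.05; it called 2.44% of all tested genes, 2.09% higher and 0.352% lower in KO. The log2 change was above 0 for 8 of the 9 genes, with a median of 0.70, while it was above 0 for 54.2% of all tested genes, whose median was 0.05. In KO libraries all 3 values lay above all WT values for 3 of the 9 genes, Cxcl1, Cxcl3 and Cxcl12, against 13.7% of all tested genes, and for none of the 9 did they lie below, against 9.24%; in either direction it was 22.9%. An unadjusted p under 0.05 was reached by 4 of the 9 genes, Cxcl1, Cxcl3, Cxcl12 and Cxcl13, against 18% of all tested genes. With the highest protein-coding transcript in place of the kept one, Cxcl1 and Cxcl3 passed again, where 2.45% of all genes did. WT replicate 3 was the lowest of the 6 libraries for 8 of the 9 genes, against 19.7% of all tested genes. The share of reads from mitochondrial genes was 6.19% in that library, against 16.2% to 27.5% in the other 5, and its part in the chemokine values was not tested. Without that library 0 of the 9 genes passed, where 209 of all genes did. None of the 9 passed without KO replicate 2, KO replicate 3 or WT replicate 2 either, where 137, 8 and 300 of all genes did.

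**Figure D1:**
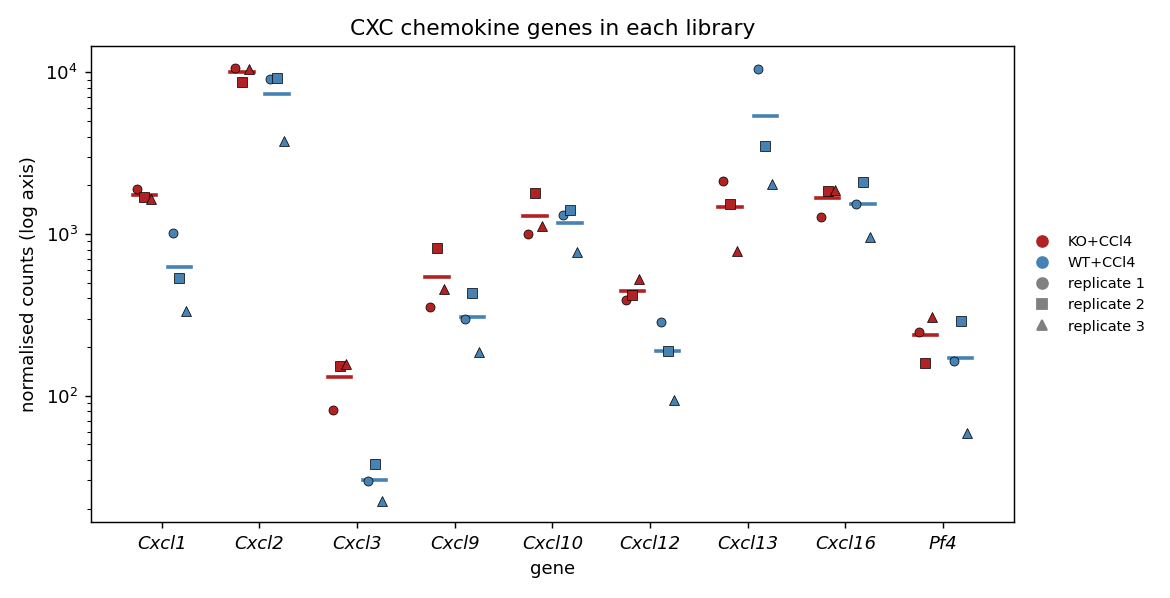
Normalised counts (log axis) of the 9 CXC chemokine genes in each KO+CCl4 and WT+CCl4 library; bars are group means and symbols are replicates. All 3 KO values lie above the WT values for Cxcl1, Cxcl3 and Cxcl12, and WT replicate 3 is the lowest of the WT libraries for every gene plotted.

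Cxcl1, a ligand of the neutrophil receptor CXCR2, rose in KO libraries. It stood at 1910, 1704 and 1638 normalised counts in the KO libraries, against 1015, 531 and 333 in the WT libraries. The groups did not overlap, and the KO libraries lay within a narrower range than the WT libraries. Cxcl1 averaged 1751 ± 142 in KO and 626 ± 351 in WT libraries (SD, n = 3 each), a log2 change of 1.63 (SE 0.34, 95% interval 0.86 to 2.4, limma adjusted p = 0.0465). The call lies close to the threshold. edgeR's quasi-likelihood test on the recovered reads, which called 1.79% of all genes, gave an adjusted p of 0.0694, limma with TMM scaling, which called 1.87%, gave 0.0521, and leaving out 1 library kept the call in 1 of 6 fits, that without WT replicate 1.

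Cxcl3, the second riser, was a low gene with the largest log2 change of the 9. It stood at 81.9, 154 and 158 normalised counts in KO, against 29.9, 37.8 and 22.5 in WT libraries. These values rest on 55, 129 and 187 reads in KO and 29, 36 and 40 reads in WT libraries. The groups did not overlap, and the lowest KO library, replicate 1, lay above the highest WT library, replicate 2. The log2 change was 2.06 (SE 0.41, 95% interval 1.14 to 2.98, limma adjusted p = 0.0412), and edgeR's adjusted p was 0.0455. Leaving out 1 library kept this call in 1 of 6 fits, that without KO replicate 1, and the adjusted p reached 0.179 without KO replicate 3.

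Cxcl2, which lies next to Cxcl1 on chromosome 5 and binds the same receptor, had the highest level of the ELR genes and did not pass. It stood at 10707, 8724 and 10546 normalised counts in KO, against 9161, 9204 and 3747 in WT libraries. KO replicate 2 lay below WT replicates 1 and 2, so the groups overlapped. The log2 change was 0.55 (SE 0.34, 95% interval -0.22 to 1.32, limma adjusted p = 0.46), and it was 0.12 without WT replicate 3.

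Ratios within a library do not depend on how the libraries were scaled. The ratio of Cxcl1 to Cxcl2 was 0.178, 0.195 and 0.155 in KO, against 0.111, 0.0577 and 0.0889 in WT libraries, with no overlap. The ratio of Cxcl3 to Cxcl2 was 0.00765, 0.0176 and 0.0150 in KO, against 0.00326, 0.00411 and 0.00599 in WT libraries, again with no overlap. Cxcl1 and Cxcl3 kept a ratio that did overlap, 0.0766 ± 0.0293 in KO and 0.0560 ± 0.0231 in WT libraries (SD, n = 3 each). The exact two-sided permutation p was 0.1 for the ratios to Cxcl2, the smallest that 3 against 3 libraries allow, and 0.5 for Cxcl3 to Cxcl1. Adjusted over the 5 ratios computed, these were 0.167 and 0.5.

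**Figure D2:**
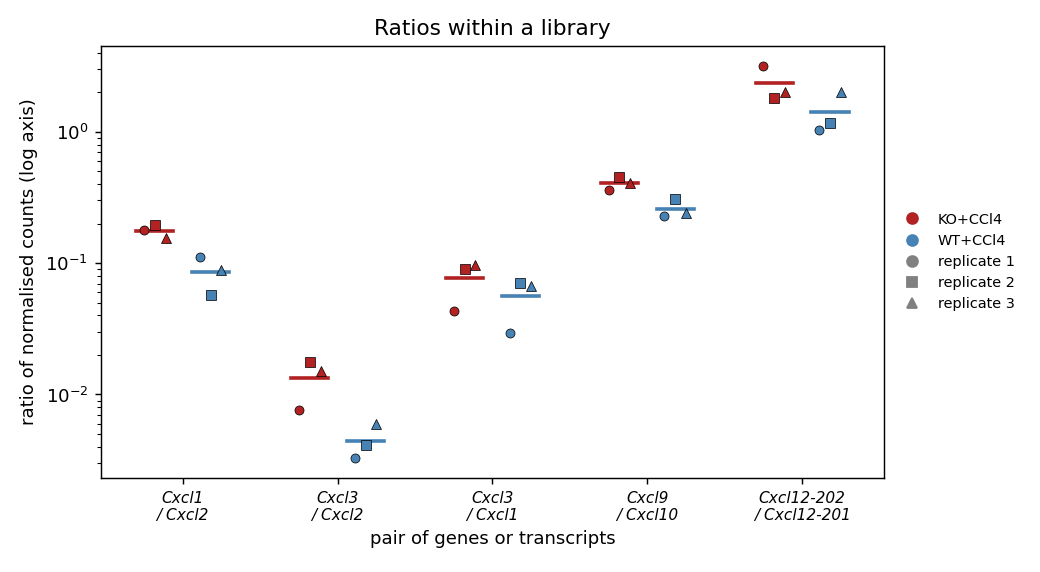
Ratios of normalised counts (log axis) of pairs of chemokine genes, or of 2 Cxcl12 transcripts, within each KO+CCl4 and WT+CCl4 library; bars are group means and symbols are replicates. The KO and WT values do not overlap for Cxcl1 to Cxcl2, Cxcl3 to Cxcl2 and Cxcl9 to Cxcl10.

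The sequences upstream of the ELR genes are printed with those of Cxcl9 and Cxcl10 because these 5 promoters hold matches to the binding motif of NF-kB, the factor known to induce them in inflammation. They are the 250 bases before the start site in RefSeq on GRCm38.p6, 5′ to 3′ on the strand of the gene. The capitals mark matches on either strand to the NF-kB motif (GGG, any 2 bases, TT, any base, CC) or to the interferon-stimulated response element (TTTC, any 2 bases, TTTC), bound by interferon-activated factors; no 2 matches overlap.
Cxcl1, chr5:90890995-90891244, plus strand: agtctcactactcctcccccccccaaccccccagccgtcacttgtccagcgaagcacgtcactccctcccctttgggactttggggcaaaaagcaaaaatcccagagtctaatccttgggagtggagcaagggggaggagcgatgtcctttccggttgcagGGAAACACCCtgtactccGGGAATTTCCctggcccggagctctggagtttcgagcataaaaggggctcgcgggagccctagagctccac
Cxcl2, chr5:90903649-90903898, plus strand: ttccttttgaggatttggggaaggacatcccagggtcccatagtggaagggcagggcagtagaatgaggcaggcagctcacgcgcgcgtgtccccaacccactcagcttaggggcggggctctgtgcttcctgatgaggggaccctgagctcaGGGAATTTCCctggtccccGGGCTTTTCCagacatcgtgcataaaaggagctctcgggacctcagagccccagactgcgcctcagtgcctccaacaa
Cxcl3, chr5:90785851-90786100, plus strand: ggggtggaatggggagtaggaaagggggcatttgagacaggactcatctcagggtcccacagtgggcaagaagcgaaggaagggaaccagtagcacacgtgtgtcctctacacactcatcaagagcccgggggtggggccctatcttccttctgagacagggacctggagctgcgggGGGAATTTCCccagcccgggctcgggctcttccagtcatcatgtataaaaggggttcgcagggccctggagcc
Cxcl9, chr5:92328080-92328329, minus strand: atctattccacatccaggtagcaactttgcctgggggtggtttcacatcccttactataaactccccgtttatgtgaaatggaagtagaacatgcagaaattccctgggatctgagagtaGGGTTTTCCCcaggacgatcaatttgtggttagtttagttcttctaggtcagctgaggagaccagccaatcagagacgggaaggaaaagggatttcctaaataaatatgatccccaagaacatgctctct
Cxcl10, chr5:92348890-92349139, minus strand: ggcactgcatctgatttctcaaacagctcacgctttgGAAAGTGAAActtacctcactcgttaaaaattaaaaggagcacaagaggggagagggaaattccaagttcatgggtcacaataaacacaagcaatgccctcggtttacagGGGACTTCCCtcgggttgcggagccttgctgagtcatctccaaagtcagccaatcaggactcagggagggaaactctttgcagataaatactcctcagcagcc
Promoters were listed for 8 of the 9 genes, and 5 of them held the NF-kB motif, against 4.0% of 27025 mouse promoters of the same length. The same letters, GGGAATTTCC, stood in all 3 ELR promoters, from 71 bases before the start site in Cxcl1, 97 in Cxcl2 and 73 in Cxcl3. The interferon element was matched in Cxcl10 alone of these 8, against 3.04% of all promoters. The palindromic interferon gamma motif TTCNNNGAA was matched in 0 of the 8, against 7.18% of all promoters. A match describes the letters in this window and no binding was measured.

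Cxcl9 and Cxcl10, the interferon-induced ligands of CXCR3, did not pass the test. Cxcl9 stood at 356, 817 and 456 normalised counts in KO, against 297, 434 and 188 in WT libraries. The groups overlapped, with KO replicate 1 below WT replicate 2, and the log2 change was 0.82 (SE 0.37, 95% interval -0.02 to 1.65, limma adjusted p = 0.288). Cxcl10 stood at 994, 1791 and 1114 in KO, against 1305, 1410 and 774 in WT libraries. KO replicates 1 and 3 lay within the WT range, and the log2 change of 0.16 (SE 0.29, 95% interval -0.49 to 0.81, limma adjusted p = 0.835) turned below 0 without KO replicate 2 or WT replicate 3. Cxcl10 lies within the span of Art3 on the opposite strand, and 133 of the 2230 exon bases of its kept transcript lie in exons of Art3. Whether the authors' counting used strand is not stated, so reads from those bases may belong to either gene.

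For both Cxcl9 and Cxcl10 the highest KO library was replicate 2. The lowest WT library was replicate 3 for both, as it was for all 9 chemokine genes. The ratio of Cxcl9 to Cxcl10 was 0.358, 0.456 and 0.409 in KO, against 0.227, 0.308 and 0.242 in WT libraries. The groups did not overlap, and the exact two-sided permutation p was 0.1, or 0.167 adjusted over the 5 ratios. Cxcl11, the remaining CXCR3 ligand, was too low to test, with 0, 0 and 2 reads in KO and 11, 2 and 5 reads in WT libraries. Of 17 tested interferon gamma induced genes, 1 rose and none fell, where 2.09% of all tested genes rose and 0.352% fell. The median log2 change of these genes was 0.12. The riser was Iigp1, an interferon-inducible GTPase, at 827, 720 and 853 in KO, against 356, 382 and 233 in WT libraries (log2 change 1.33, SE 0.23, limma adjusted p = 0.0254). Cd274, the checkpoint ligand PD-L1, and Gbp2 had log2 changes of -0.96 and 0.51 and did not pass.

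Cxcl12, the homeostatic ligand of CXCR4, was above all WT values in every KO library without passing the test. It stood at 390, 417 and 528 normalised counts in KO, against 284, 189 and 93.8 in WT libraries. The groups did not overlap, and the log2 change was 1.36 (SE 0.37, 95% interval 0.52 to 2.19, limma adjusted p = 0.0915). Of 16 alternative settings 1 called it, DESeq2 on the recovered reads, with an adjusted p of 0.0263, where it called 9.19% of all genes.

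The transcripts of Cxcl12 differed in this. Cxcl12-202, with a coding sequence of 267 bases and the alpha isoform's last exon at 117173492 to 117175069 of chromosome 6 (GRCm38), stood at 390, 417 and 519 in KO, against 284, 187 and 93.2 in WT libraries. Cxcl12-201, with 357 coding bases and a distal last exon at 117176086 to 117181367, stood at 122, 232 and 257 in KO, against 274, 160 and 46.0 in WT libraries, and its groups overlapped. The beta form Cxcl12-203, with 279 coding bases, overlapped likewise. The ratio of Cxcl12-202 to Cxcl12-201 ran from 1.79 to 3.20 in KO and from 1.04 to 2.02 in WT libraries (exact two-sided permutation p = 0.3). Reads in the exons that these transcripts share appear to be counted for each of them, so the levels are not independent.

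**Figure D3:**
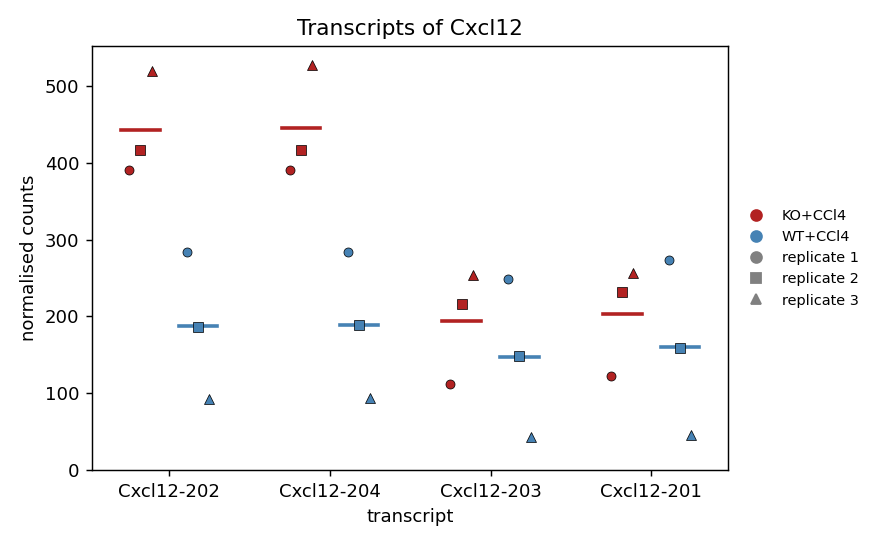
Normalised counts of the 4 Cxcl12 transcripts in each KO+CCl4 and WT+CCl4 library, with group means as bars. The KO values lie above the WT values for Cxcl12-202 and Cxcl12-204, which hold the extended exon 3, and overlap with them for Cxcl12-203 and Cxcl12-201.

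Cxcl13, the B cell attractant, was the only gene of the 9 with a lower mean in KO libraries. It stood at 2117, 1524 and 782 normalised counts in KO, against 10453, 3508 and 2046 in WT libraries. KO replicate 1 lay just above WT replicate 3, so the groups overlapped, and WT replicate 1 lay far above the next library. The log2 change was -1.63 (SE 0.55, 95% interval -2.87 to -0.39, limma adjusted p = 0.154), and it was -0.98 without WT replicate 1. Its receptor Cxcr5 had 855, 714 and 379 in KO, against 439, 351 and 759 in WT libraries. The 10 B cell markers had a median log2 change of 0.06, and none passed.

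Cxcl16, the membrane-anchored ligand of CXCR6 on T and NKT cells, had similar means in both groups. It stood at 1266, 1856 and 1874 normalised counts in KO, against 1539, 2114 and 962 in WT libraries, so all KO values lay within the WT range. The log2 change was 0.16 (SE 0.29, 95% interval -0.49 to 0.81, limma adjusted p = 0.828). Adam10 and Adam17, the proteases that shed Cxcl16 from the membrane, had log2 changes of -0.16 and -0.44 and did not pass. Cxcl16 overlaps Zmynd15 on the opposite strand, with 552 of the 2699 exon bases of its kept transcript in exons of that gene.

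Pf4, the platelet factor, stood at 249, 160 and 306 normalised counts in KO, against 165, 289 and 59.0 in WT libraries. KO replicate 2 lay below both WT replicates 1 and 2, and the log2 change was 0.70 (SE 0.52, 95% interval -0.47 to 1.87, limma adjusted p = 0.545). Ppbp, the other CXC chemokine of platelet granules, was at 67.0, 89.4 and 68.5 in KO, against 224, 417 and 15.7 in WT libraries. Its log2 change was -0.63 (SE 0.98, limma adjusted p = 0.798), and it depended on single libraries: it was 0.30 without WT replicate 2, and -2.02 without WT replicate 3, the only one of 16 alternatives in which Ppbp passed (adjusted p = 0.0451). Of 12 platelet and megakaryocyte markers, Ppbp among them, none passed, and their summed level ran from 1432 to 1558 in KO and from 705 to 2693 in WT libraries. Gp6, the collagen receptor of platelets, was at 0 in KO replicate 1. WT replicate 2 was the highest and WT replicate 3 the lowest WT library for Pf4, Ppbp and this list, which holds Ppbp. Cxcl2, Cxcl3, Cxcl9, Cxcl10 and Cxcl16 had the same order, so it was not particular to platelet genes.

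**Figure D4:**
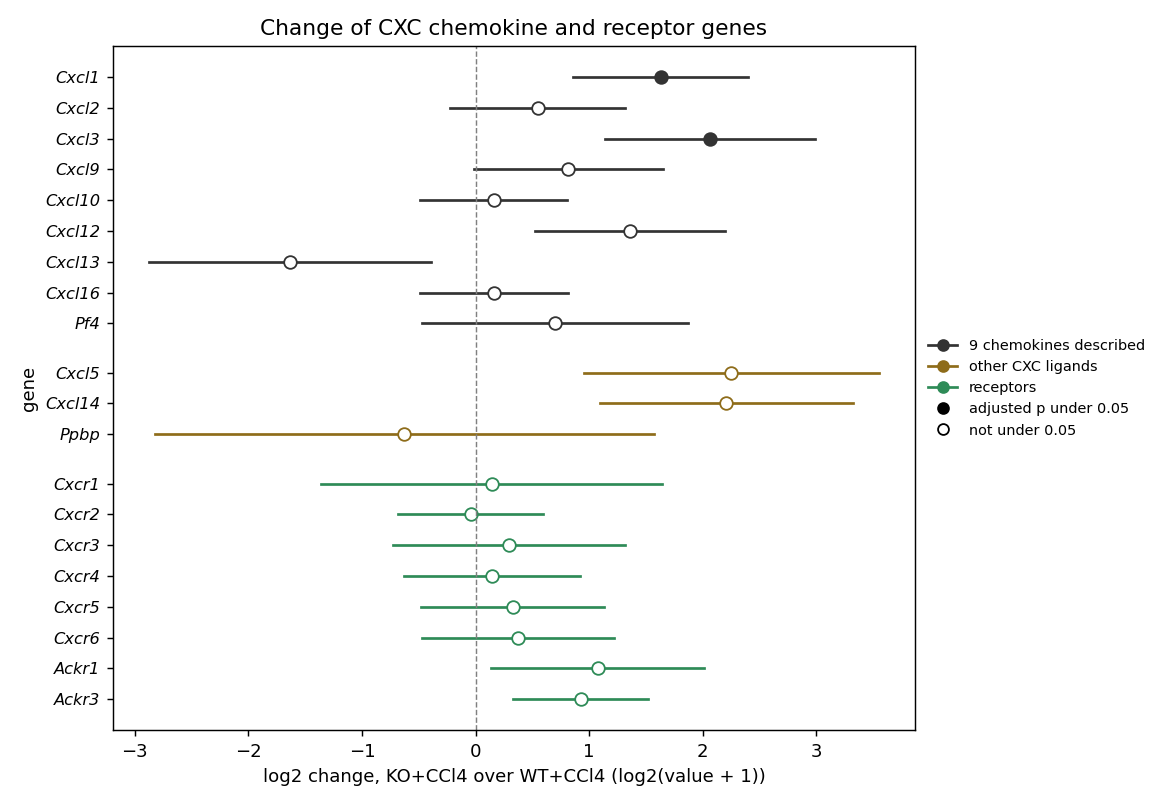
Log2 change of KO+CCl4 over WT+CCl4 with its 95% interval from limma for the 9 chemokine genes, 3 other CXC ligands and 8 receptors; filled points have an adjusted p under 0.05. Only Cxcl1 and Cxcl3 are filled, at 1.63 and 2.06.

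Levels of different genes were compared per kilobase of the highest protein-coding transcript. In KO libraries Cxcl2 came first, at 5315 ± 572 normalised counts per kilobase, followed by Cxcl1 at 1768 ± 156 (SD, n = 3 each here and below). Cxcl13 at 1282 ± 582 and Cxcl10 at 1149 ± 392 came next and did not differ beyond their spread. Cxcl16 and Pf4 stood at 617 ± 128 and 405 ± 126, and Cxcl12, Cxcl9 and Cxcl3 formed a low group at 235 ± 36.2, 188 ± 84.0 and 124 ± 47.4. In WT libraries the order began with Cxcl13 at 4639 ± 3906 and Cxcl2 at 3911 ± 1669, which overlapped widely. Cxcl13 lay above Cxcl2 in WT replicate 1 alone, at 9089 against 4891. By its shorter coding transcript, Cxcl2-201, Cxcl2 stood at 7675, 7451 and 3094 in the WT libraries. Cxcl10 at 989 ± 295, Cxcl1 at 619 ± 335 and Cxcl16 at 570 ± 213 overlapped in turn. Pf4 stood at 291 ± 196, Cxcl9 at 106 ± 42.7 and Cxcl12 at 100 ± 50.9. Cxcl3 was last in both groups, at 27.5 ± 4.74 in WT libraries. By the longer kept transcripts Cxcl1 was at rank 3 in KO and rank 5 in WT libraries.

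The other CXC ligands and the receptors show the rest of the axis. Cxcl5, a further CXCR2 ligand, stood at 286, 282 and 507 normalised counts in KO, against 188, 65.1 and 29.8 in WT libraries. Cxcl14, made by stromal and epithelial cells, stood at 317, 210 and 482, against 69.0, 134 and 33.7 in WT libraries. For both the groups did not overlap, with log2 changes of 2.25 (SE 0.58) and 2.21 (SE 0.50), and both missed the threshold with limma adjusted p of 0.0775 and 0.0533. Cxcl17 had no reads in 5 of the libraries.

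Of the 8 receptor genes none passed, and 7 had a log2 change above 0, with a median of 0.31. Cxcr2, the neutrophil receptor of the ELR ligands, stood at 435, 447 and 416 in KO, against 520, 610 and 279 in WT libraries, a log2 change of -0.04 with a 95% interval of -0.68 to 0.59. Cxcr3 and Cxcr6, on T and NK cells, had log2 changes of 0.29 and 0.37. Cxcr4, the receptor of Cxcl12, had 0.15. Ackr3, which takes up Cxcl12, stood at 268, 468 and 348 in KO, against 189, 213 and 158 in WT libraries, with no overlap (log2 change 0.93, SE 0.26, limma adjusted p = 0.0998). Ackr1, the chemokine-binding receptor of venous endothelium and erythroid cells, had a log2 change of 1.08 (limma adjusted p = 0.213).

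Genes that the same signals induce are set beside all tested genes, of which 2.44% were called. Of 20 NF-kB induced inflammatory genes none passed, 6 were above 0, and the median log2 change was -0.27. Cd40, a receptor of antigen-presenting cells, had the smallest p of them, with a log2 change of -0.76 (limma adjusted p = 0.0998). Il1a, the cytokine IL-1 alpha, was higher in every KO library, at 1216, 2246 and 1685, against 1024, 1209 and 389 in WT libraries (log2 change 1.08, limma adjusted p = 0.193). Il1b and Tnf had log2 changes of -0.48 and -0.12. Of 18 upstream cytokine and receptor genes 1 rose, Il17rc, a subunit of the IL-17 receptor, at 194, 173 and 235 in KO, against 43.3, 92.4 and 72.4 in WT libraries (log2 change 1.57, SE 0.34, limma adjusted p = 0.0498). This call held in 5 of 16 alternatives and was lost with edgeR (adjusted p = 0.0644). Il17ra, its partner, had a log2 change of -0.79 (limma adjusted p = 0.111). Tnfrsf1b, a TNF receptor, and Myd88, the adaptor of Toll-like and IL-1 receptors, had log2 changes of -0.92 and -0.67 and did not pass. Of 15 immediate early and stress genes, which tissue digestion can induce, none passed and 14 were above 0, with a median of 0.34; Hspb1 came nearest (log2 change 1.38, limma adjusted p = 0.0616). Their summed level ran from 108051 to 210050 in KO and from 118679 to 138710 in WT libraries, and its part in the chemokine values was not tested.

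Markers of other liver cells moved with these groups. Of all tested genes 54.2% were above 0, 2.09% rose and 0.352% fell. All 19 tested hepatocyte markers were above 0, and 8 of them rose, Cyp2e1 and Tat for instance by log2 changes of 2.35 and 2.71. The median was 1.73, and their summed level ran from 151212 to 270346 in KO and from 41056 to 127933 in WT libraries. All 17 endothelial markers were above 0 and 5 rose (Bmp2, Tie1, Emcn, Clec4g and Dnase1l3), with a median of 1.31 and sums of 84516 to 176124 in KO and 40658 to 77120 in WT libraries. Of 16 stellate cell and fibroblast markers 13 were above 0 and 1, Col1a1, rose, with sums of 36089 to 64267 in KO and 21605 to 31215 in WT libraries. All 9 tested cholangiocyte markers were above 0 and 1 rose, Spp1, with sums of 15198 to 30417 in KO and 3196 to 8287 in WT libraries. None of these markers was at 0 in any library except Cftr. With edgeR, which called 1.79% of all genes, all 8 hepatocyte calls held. Of the 5 endothelial calls 1 held, that of Bmp2, and those of Col1a1 (adjusted p = 0.0550) and Spp1 (adjusted p = 0.0739) were lost. The 8 tested erythroid markers were all above 0 without a call, and their sums ran from 30838 to 269599 in KO and from 2230 to 33514 in WT libraries. The part of these cell types in the chemokine values was not tested. In bulk RNA, more cells of a type and more RNA per cell cannot be told apart.

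Among leukocyte markers 3 were called, Cx3cr1, Treml4 and Lyz2, all lower in KO. Of all tested genes 2.44% were called, 2.09% higher and 0.352% lower in KO. Lyz2, with a log2 change of -6.20, lay far from the median of its own list, -0.13. All 12 monocyte markers were below 0 and 2, Cx3cr1 and Treml4, fell; the median log2 change was -0.62, and edgeR kept the call of Cx3cr1 but not that of Treml4 (adjusted p = 0.0524). Of 12 neutrophil markers none passed, the median was -0.32, and their sums ran from 10190 to 17958 in KO and from 12304 to 17358 in WT libraries. Of 14 macrophage and Kupffer cell markers 5 were above 0, and 1, Lyz2, fell, at 587, 1394 and 2023 in KO, against 111085, 93637 and 63752 in WT libraries, and the median was -0.13. Adgre1, the gene of F4/80, stood at 4441, 4648 and 6673 in KO, against 6516, 7644 and 4463 in WT libraries, and Csf1r, the receptor of macrophage growth factor, at 18223, 16167 and 15676, against 38520, 33971 and 23867. Both markers of the labelled cells were thus detected in every library. Clec4f, a marker of Kupffer cells, lay the other way without passing, at 4727, 9342 and 7476 in KO, against 3155, 3274 and 3142 in WT libraries, with no overlap (log2 change 1.12, limma adjusted p = 0.0539). Other Kupffer cell markers did not share this rise. Marco had a log2 change of -1.63, with all KO values below the WT values (limma adjusted p = 0.103). Cd5l, Timd4 and Vsig4 had -0.67, -0.64 and 0.08, and none passed. Of 10 dendritic cell markers none passed and 4 were above 0, with a median of -0.22; Zbtb46 and Fscn1 were above all WT values in every KO library, with log2 changes of 1.30 and 1.04. The T and NK cell markers had a median of 0.10, with no calls.

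**Figure D5:**
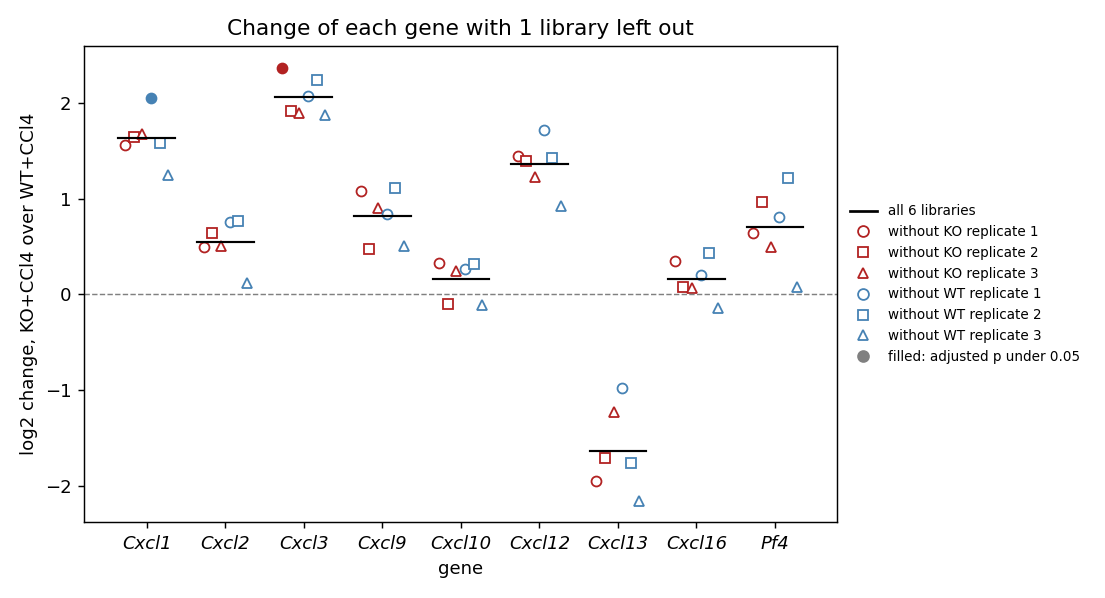
Log2 change of KO+CCl4 over WT+CCl4 for the 9 chemokine genes with all 6 libraries (black lines) and with 1 library left out (symbols); filled symbols have a limma adjusted p under 0.05. Cxcl1 keeps its call only without WT replicate 1, Cxcl3 only without KO replicate 1, and leaving out WT replicate 3 lowers the change of every gene.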

How the data were processed

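Per the file headers, the values that the authors deposited are a signal, read counts per Ensembl transcript after normalisation, for 79382 transcripts in each of 6 libraries. Dividing them by the smallest value above 0 of a library gave whole numbers in 100% of cases (tolerance 0.001), taken here as reads. bcl2fastq 2.17, STAR 2.4.0k, SAMtools, HTSeq 0.5.3, DESeq 1.8.3 and GRCm38.p4 are named, without roles, in the submitters' processing notes. Strand setting and handling of multiply matching reads were not found there. GENCODE M21 (GRCm38) matched 78344 transcripts; the rest held 1.02% to 1.31% of reads. The transcripts kept, 1 per gene, held 10793260 to 22166360 reads per library, and 3 libraries a group limit the precision.

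limma 3.58.1 (R 4.3.3) with a trended prior tested log2(value + 1), with genotype as the only term, after filterByExpr on the reads. Fold changes on this scale understate those of low genes. On the same reads edgeR 4.0.16 called 280 genes, against 381 with limma. The alternatives were edgeR, DESeq2 1.42.0, TMM scaling, other pseudocounts and filters, summed transcripts, the replicate number as a block, and fits without 1 library. The highest protein-coding transcript and the ratios were added after values were seen. The fits were tested on simulated data.

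The genes and lists were chosen with earlier results of these data known. The rule for named genes covers the 9 chemokine genes and, from each other list, the called genes and up to 3 of smallest unadjusted p. It also covers the 2 nearest genes of each chemokine gene, and Adgre1 and Csf1r. The text describes only part of these. Left out were, for instance, Ace, Retnlg and Flt3 (log2 changes -1.39, -1.17 and -0.97) and Col1a2 and Ecm1 (1.13 and 1.16), none of which passed. So were the mesothelial markers, without a call, and the called hepatocyte markers other than Cyp2e1 and Tat. Cxcl11, Cxcl17, Cxcr1, Cxcr2, Cxcr3, Cxcr4 and Cxcr5 fall outside the rule. So do Adam10, Adam17, Tnf, Il1b, Il17ra, Ifnb1, Ifng, Cftr, Cd5l, Timd4 and Vsig4. All of these were named after their values were seen.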

Additional observations from a re-analysis of the deposited data

How the results depend on the processing

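The number of genes that passed was 381 with all libraries, 1407 with DESeq2 (958 higher and 449 lower, against 326 and 55) and 232 with summed transcripts, and ran from 8 without KO replicate 3 to 808 without KO replicate 1 when 1 library was left out; leaving out KO replicate 2 gave 137, and leaving out a WT library gave 174 (replicate 1), 300 (replicate 2) or 209 (replicate 3). The number of the 9 chemokine genes that passed was 2, and it was 1 with edgeR, with TMM factors, with no filter on low values and with summed transcripts, and ran from 0 to 1 when 1 library was left out. DESeq2 called 3, adding Cxcl12. Cxcl1 passed under 8 and Cxcl3 under 10 of 16 alternatives, with log2 changes from 1.25 to 2.05 and from 1.87 to 2.37 and adjusted p of 0.00191 to 0.152 and 0.000109 to 0.179. The cause was not tested.

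Nothing in the labels pairs libraries of equal replicate number. Deviations from the group means correlated at -0.01, 0.09 and -0.14 for numbers 1, 2 and 3 across genes, and from -0.13 to 0.14 for unequal numbers. With 1 value per pair of libraries, these correlations cannot exclude a shared batch. With the replicate number as a block, 532 genes and 3 of the 9 chemokine genes passed, Cxcl13 among them at an adjusted p of 0.0150.

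With 1 library left out, changes that did not pass with all 6 turned sign: Cxcl10 ran from -0.11 to 0.33, Cxcl16 from -0.14 to 0.43, Ppbp from -2.02 to 0.30, Cd3g from -0.12 to 0.67, Nkg7 from -0.054 to 0.61, Fcer2a from -0.047 to 0.71, Cr2 from -0.54 to 0.10 and Cd79a from -0.026 to 0.57. The median of the macrophage markers ran from -0.45 to 0.12. Il17rc kept its call in 1 of 6 such fits, and Iigp1 lost it without KO replicate 2, KO replicate 3 or WT replicate 1. Results were counted over all alternatives for the 74 different genes that the naming rule takes from the lists, and for Adgre1 and Csf1r. Of these results 1061 kept their direction and side of the threshold, 104 lost the call, 41 gained it and 9 turned sign. At 3 libraries a group, changes of the size of Cxcl9 or Cxcl2 could not be separated from 0.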

Other observations

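Among 10810 other genes, those whose 6 log2 values lay nearest to a chemokine's, each centred on its own mean, were taken by root mean square difference, as a description over 6 libraries that share their scaling. Cxcl1 lay nearest to Tfpi2, a secreted protease inhibitor, at 0.16, and to Lactb2 at 0.21. Cxcl3 lay nearest to Fam174b at 0.21 and to Inhbb, a subunit of the activins, at 0.22. Cxcl12 lay nearest to Cables1 at 0.20 and to Hspb1, a small heat shock protein, at 0.21. Cxcl13 lay nearest to Ms4a6c at 0.32 and to Treml4 at 0.36, both of which are expressed in myeloid cells, and Treml4 fell in KO libraries (log2 change -1.72, limma adjusted p = 0.0471). Cxcl16 lay closest of all, at 0.05 from Lgmn, the lysosomal protease legumain. Pf4 lay farther from its nearest genes, Dpep2 and Orm1, both at 0.31. Cxcl2 lay nearest to Tceal8 at 0.11 and Hebp1 at 0.15, Cxcl9 to Armcx1 at 0.13 and Ripply3 at 0.15, and Cxcl10 to Zfp623 at 0.10 and Mid1 at 0.13.

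Ifnb1, the gene of interferon beta, had 9, 15 and 36 reads in KO, against 100, 176 and 32 reads in WT libraries, which differ in depth. In normalised counts the groups overlapped for Ifnb1, with KO replicate 3 above WT replicate 3, as they did for Cxcl10. WT replicate 3 was the lowest WT library for Ifnb1 too, and the change did not pass (log2 change -1.81, SE 0.79, limma adjusted p = 0.27). Ifng stood at 715, 250 and 212 in KO, against 328, 148 and 499 in WT libraries. Dpp4, the peptidase that inactivates several CXC chemokines, stood at 2564, 5060 and 4112 in KO, against 2512, 2017 and 1952 in WT libraries, with no overlap (log2 change 0.81, limma adjusted p = 0.128).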
